A study of Mus musculus with 12 samples.

Results

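Imprinted growth-control genes were examined in neural stem cells (NSCs) that carry or lack Ncf1, the gene of the p47phox subunit of the NOX2 oxidase. The 10 genes were H19, Dlk1, Meg3, Rian, Mirg, Peg3, Peg10, Plagl1, Grb10 and Ndn, found by symbol among the 45792 genes listed in the deposited tables and described whatever their values. An imprinted gene carries a methylation mark set in the egg or the sperm, so that only the maternal or only the paternal copy is transcribed in most cells. Many of these genes act on fetal growth, and several are read from shared imprinting control regions as clusters: maternally expressed H19 with paternally expressed Igf2, and maternally expressed Meg3, Rian and Mirg with paternally expressed Dlk1. Paternally expressed genes are Peg3, Peg10, Plagl1 and Ndn, and Grb10 is read from the maternal copy in most tissues and from the paternal copy in neurons. RNA levels alone, as measured here, do not tell which parental copy a transcript came from.

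The RNA came from passage-2 forebrain NSCs of newborn pups, grown with EGF and FGF, with ribosomal RNA depleted before sequencing. There were 12 libraries in 3 groups of 4: WT C57BL/6J cells (libraries 9 to 12), Ncf1-/- cells given vehicle (libraries 1 to 4) and Ncf1-/- cells given recombinant Igfbp2, a binding protein of insulin-like growth factors (libraries 5 to 8). The Ncf1-/- line was kept as a backcross to C57BL/6J, and both Ncf1-/- groups carry the deletion in all cells. Igfbp2 was added 48 hours after plating and RNA was taken 48 hours later, at 100 ng/ml per the labels, while the study's methods give a lower dose. The labels call the vehicle group untreated. Igfbp2-treated WT cells were not analysed here, so that Igfbp2 was compared with vehicle in Ncf1-/- cells alone.

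Libraries held 18201622 to 34086554 counts assigned to genes. Library-scaled counts (CPM) below use edgeR's TMM factors, and a gene was called changed at an adjusted p under 0.05 by edgeR's quasi-likelihood test over 15706 genes. The WT libraries were less alike than the others, with a biological coefficient of variation of 0.25 against 0.117 for vehicle and 0.121 for Igfbp2. Oligodendrocyte lineage markers (15 genes) summed to 13847, 14044, 4019 and 8805 CPM in WT libraries 9 to 12. Their sums were 2274 to 2442 in vehicle and 2338 to 2421 in Igfbp2 libraries. Of the 15, 13 were called lower and 2 higher between genotypes, beside 28.2% lower and 28.9% higher of all genes. Mog had 3 counts or fewer in each Ncf1-/- library. Neural stem cell markers (9 genes) summed to 2526, 2620, 8203 and 3746 CPM in WT libraries 9 to 12. These sums were 8034 to 8845 in vehicle and 8189 to 8604 in Igfbp2 libraries. However, 5 of the 9 were called lower and 3 higher between genotypes, beside the same shares of all genes. Summed expression of 4 Y-linked genes was 105 to 116 CPM in vehicle libraries, 7.79 to 9.18 in Igfbp2 libraries, 107 to 118 in WT libraries 9 to 11 and 6.46 in WT library 12. The methods describe vehicle and Igfbp2 cultures as drawn from the same animals, but Y-linked expression differed between every such pair, so that treatment and sex-linked expression cannot be told apart. Ncf1 itself had 2 to 7 counts in WT and 1 to 4 in Ncf1-/- libraries, which is too few to check the genotype labels.

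All 10 genes were located in GRCm38 with GENCODE M21. H19 lies at chr7:142575529-142578143 on the minus strand and is a long noncoding RNA gene. Dlk1 (chr12:109452823-109463336), Meg3 (chr12:109541001-109571726), Rian (chr12:109603940-109661716) and Mirg (chr12:109729764-109749460) follow each other on the plus strand, with Dlk1 protein-coding and the others noncoding. Peg3 (chr7:6703892-6730431, minus), Peg10 (chr6:4747306-4760517, plus), Plagl1 (chr10:13060504-13131694, plus), Grb10 (chr11:11930508-12038683, minus) and Ndn (chr7:62346569-62350262, plus) are protein-coding. Other annotated genes overlap Rian (19), Mirg (15), Meg3 (5), H19 (3), Plagl1 (1) and Ndn (1). Most genes that overlap Rian and Mirg are small RNA genes on the same strand, and 9 in each case share exons with it. Whether the counting used strand is not given in the sources used here. Reads of overlapping antisense genes can therefore not be separated from those of the genes listed.

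Promoters from RefSeq (GRCm38.p6, 300 bases that span a gene's start) matched 8 of the 10 genes in 10 windows, with H19 and Peg10 the unmatched ones. The windows of Grb10, Plagl1 and Peg3 and the first Meg3 start are shown, all of genes whose RNA was called changed in some comparison. Rian was also called changed, but its window and that of the second Meg3 start are not shown. Imprints are written on CpG dinucleotides, but whether any of these windows carries an imprint was not tested. Capitals mark the hexamer TGCCGC, bound when methylated by the imprint-protecting zinc finger protein ZFP57, searched on both strands and read as its reverse complement on the strand shown (5′ to 3′ along the gene).
Grb10, first start (chr11:12037371-12037670, minus): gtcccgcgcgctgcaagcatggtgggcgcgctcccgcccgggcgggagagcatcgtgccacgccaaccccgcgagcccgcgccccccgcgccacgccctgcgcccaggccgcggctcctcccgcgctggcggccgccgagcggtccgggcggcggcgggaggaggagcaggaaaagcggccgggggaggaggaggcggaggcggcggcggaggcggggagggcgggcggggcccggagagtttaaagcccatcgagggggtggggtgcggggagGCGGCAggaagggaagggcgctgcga
Grb10, second start (chr11:12027922-12028221, minus): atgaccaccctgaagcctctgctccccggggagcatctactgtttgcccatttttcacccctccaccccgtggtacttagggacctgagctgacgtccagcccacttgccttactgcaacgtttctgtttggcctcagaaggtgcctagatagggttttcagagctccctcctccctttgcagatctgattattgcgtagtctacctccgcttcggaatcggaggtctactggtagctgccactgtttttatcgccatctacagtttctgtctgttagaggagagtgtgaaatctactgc
Plagl1 (chr10:13090582-13090881, plus): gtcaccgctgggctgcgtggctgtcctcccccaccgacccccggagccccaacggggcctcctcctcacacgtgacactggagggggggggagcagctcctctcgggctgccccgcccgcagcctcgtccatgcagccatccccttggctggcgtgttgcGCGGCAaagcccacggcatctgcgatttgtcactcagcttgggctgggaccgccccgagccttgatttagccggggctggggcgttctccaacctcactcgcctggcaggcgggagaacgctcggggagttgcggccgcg
Meg3, first start (chr12:109540746-109541045, plus): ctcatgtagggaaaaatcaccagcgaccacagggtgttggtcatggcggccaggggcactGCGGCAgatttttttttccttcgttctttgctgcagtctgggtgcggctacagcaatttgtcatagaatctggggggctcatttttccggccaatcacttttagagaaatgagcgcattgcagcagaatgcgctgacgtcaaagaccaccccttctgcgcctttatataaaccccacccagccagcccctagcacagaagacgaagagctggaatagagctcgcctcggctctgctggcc
Peg3 (chr7:6730370-6730669, minus): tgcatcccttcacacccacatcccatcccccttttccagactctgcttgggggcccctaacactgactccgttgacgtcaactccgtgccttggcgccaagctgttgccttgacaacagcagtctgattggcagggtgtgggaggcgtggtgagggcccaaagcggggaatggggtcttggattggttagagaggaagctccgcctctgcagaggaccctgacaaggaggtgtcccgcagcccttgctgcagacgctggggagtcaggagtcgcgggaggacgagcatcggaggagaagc

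The first Grb10 window held 45 CpG dinucleotides, a number reached by 1.9% of 32851 RefSeq promoters, whereas the second held 9. Plagl1 held 26, Meg3 and Peg3 held 13 each, and the median of all promoters was 7. Of the windows not shown, Ndn held 11, Mirg 10, Dlk1 9, the second Meg3 start 1 and Rian 0. The hexamer was found in 3 of the 10 windows, those of Grb10, Plagl1 and Meg3, and in 11.6% of all promoters.

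H19, an abundant fetal RNA that restrains growth and is the host of miR-675, varied more among WT cultures than any other of the 8 genes tested. It reached 4.59, 3.62, 247 and 103 CPM in WT libraries 9 to 12, 48.4, 40.3, 54.3 and 33.3 in vehicle libraries 1 to 4, and 108, 97.2, 81.1 and 136 in Igfbp2 libraries 5 to 8. Libraries 9 and 10 of WT lay below every Ncf1-/- library and libraries 11 and 12 lay above every vehicle library. The highest WT value was 68.2-fold above the lowest, against 1.63-fold in vehicle and 1.68-fold in Igfbp2 libraries. Vehicle-treated cells differed from WT by −1.03 on the log2 scale (SE 0.90, edgeR adjusted p = 0.346), and it was 0.26 (adjusted p = 0.793) without WT library 11 and 0.77 with limma on log2(TPM + 0.1), so that its sign was not settled.

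All 4 Igfbp2 libraries lay above all 4 vehicle libraries for H19, with means of 106 ± 23.2 and 44.0 ± 9.20 CPM (SD, n = 4). The log2 fold change was 1.26 (SE 0.90), and the adjusted p was 0.32 where the spread was shared with the WT libraries. With only the 2 Ncf1-/- groups in the edgeR fit, it was 1.21 with an adjusted p of 0.00023. With the preparation number as a block it was 1.21 with an adjusted p of 0.00267, but these numbers did not pair the libraries. Both fits take the smaller spread of the Ncf1-/- libraries, which may not be that between animals. With limma on log2(TPM + 0.1) the H19 difference was 0.77 (adjusted p = 0.55). Igfbp2-treated cells differed from WT by 0.23 (SE 0.88, adjusted p = 0.83), with overlapping groups.

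Igf2, the growth factor encoded beside H19 and read from the other parental copy, put the WT libraries in the same order. Its values were 0.318, 0.216, 4.42 and 1.0 CPM in WT libraries 9 to 12, 1.31, 1.31, 1.99 and 1.53 in vehicle libraries and 3.32, 3.61, 2.73 and 4.86 in Igfbp2 libraries. The WT libraries low in H19 were low in Igf2, and the WT library highest in H19 was highest in Igf2. Every Igfbp2 library exceeded every vehicle library in CPM. The difference was 1.24 on the log2 scale (SE 0.63, edgeR adjusted p = 0.164), or 1.19 with an adjusted p of 0.00117 with the 2 Ncf1-/- groups alone. In TPM the groups overlapped (0.37 to 0.77 in vehicle, 0.42 to 0.94 with Igfbp2). Limma on log2(TPM + 0.1) gave 0.38 (adjusted p = 0.617). Against WT, vehicle cells differed by −0.07 (SE 0.64, adjusted p = 0.934), which became 1.60 (adjusted p = 0.0045) without WT library 11.

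**Figure D1:**
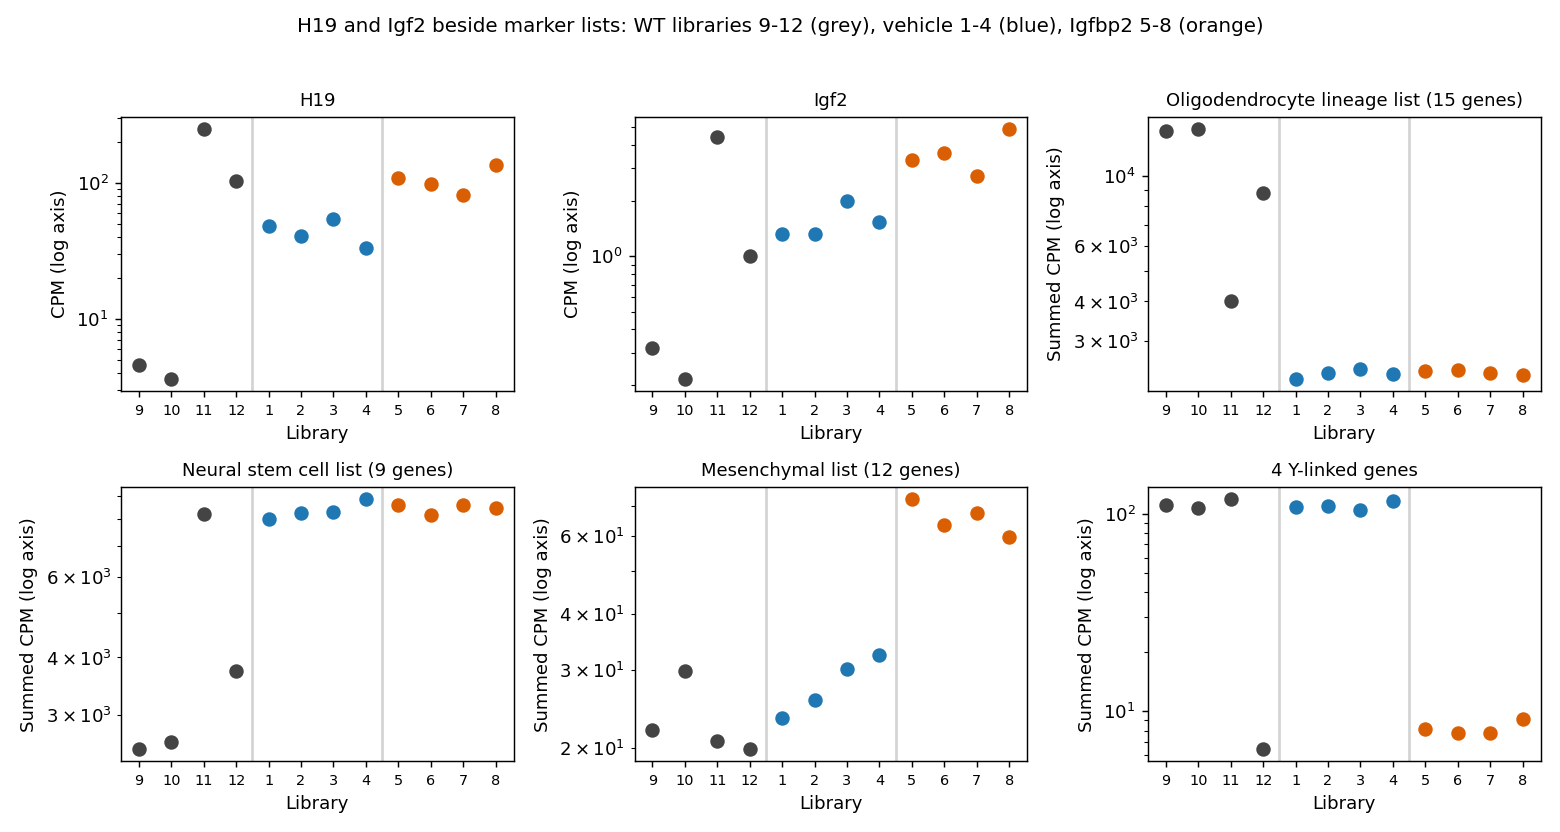
H19 and Igf2 (CPM), summed CPM of 3 marker lists and of 4 Y-linked genes, 1 point per library, all on log axes, with WT libraries 9 to 12 in grey, vehicle libraries 1 to 4 in blue and Igfbp2 libraries 5 to 8 in orange. H19 and Igf2 spread 68.2-fold and 20.5-fold over the WT libraries, and the mesenchymal list is 59.4 to 72.3 CPM in Igfbp2 libraries against 23.3 to 32.4 in vehicle libraries.

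H19 and Igf2 are abundant in fetal mesenchyme, and mesenchymal markers moved in the treatment comparison. Of 12 such genes, 7 were tested and 5 rose with Igfbp2 (beside 14.2% of all genes), with sums of 59.4 to 72.3 CPM against 23.3 to 32.4 in vehicle and 19.9 to 29.8 in WT libraries. Between genotypes 6 of the 7 were called higher and 1 lower (beside 28.9% and 28.2% of all genes). In WT libraries 9 to 12 the mesenchymal sums were 22.0, 29.8, 20.7 and 19.9 CPM, in another order than H19. Lum and Tbx18 of this list had at most 3 counts in each library of each group, and Dcn in each WT and Igfbp2 library. Endothelial markers (7 genes) summed to 11.8 to 16.8 CPM with Igfbp2, 4.57 to 8.84 with vehicle and 4.96 to 10.8 in WT, and Cdh5 had at most 3 counts in each library. Their part in the difference in H19 was not tested. WT libraries 9 and 10, the lowest in H19, also had the highest oligodendrocyte and the lowest stem cell marker sums, and in bulk RNA fewer cells of a type and less RNA per cell cannot be told apart.

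The mature products of the H19 precursor are shown because H19 acts partly through them, with the seed (bases 2 to 8) in capitals, from RefSeq.
miR-675-5p: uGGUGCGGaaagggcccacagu
miR-675-3p: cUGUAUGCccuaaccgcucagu

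The Mir675 gene was listed at 0 counts in all 12 libraries, as were the 39 matched miRNA genes of the Dlk1-Dio3 cluster, so that these tables hold no reading of the miRNAs themselves. RefSeq places 26 mature miRNAs within Mirg, 6 within Rian, 3 within Meg3 and 2 within H19.

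Meg3, a noncoding RNA that restrains proliferation, was the member that fell furthest with Igfbp2. It stood at 1.09, 2.21, 3.67 and 1.28 CPM in WT libraries 9 to 12, at 0.958, 1.02, 1.10 and 0.746 in vehicle libraries and at 0, 0.421, 0.239 and 0.393 in Igfbp2 libraries. The Igfbp2 libraries all lay below the vehicle libraries, which in turn overlapped the lowest WT library. Counts were few, at 20 to 25 per vehicle library and 0 to 8 per Igfbp2 library, and the count of 0 in library 5 allows a level of up to 0.166 CPM (3 counts, counting error only). On the log2 scale, Meg3 differed by −1.83 (SE 0.58, edgeR adjusted p = 0.0348) with Igfbp2, −1.14 (SE 0.45, adjusted p = 0.0422) between vehicle and WT, and −2.98 (SE 0.54, adjusted p = 0.000382) between Igfbp2-treated cells and WT. Leaving out single libraries lost the call in 5 of 12 cases for the treatment, in 8 of 12 for the genotype and in 0 of 12 for treated cells against WT. Without WT library 11 the genotype difference was −0.67 (adjusted p = 0.176).

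Rian, the noncoding RNA downstream of Meg3 and host of small nucleolar RNAs, moved beside it. Its values were 1.46, 1.57, 3.38 and 1.61 CPM in WT, 1.44, 1.11, 1.81 and 1.08 in vehicle and 0.609, 0.721, 0.287 and 0.589 in Igfbp2 libraries. WT library 11 stood apart from the other WT libraries, and all Igfbp2 libraries lay below all vehicle libraries. The change with Igfbp2 was −1.31 (SE 0.37, edgeR adjusted p = 0.022), a 2.48-fold lower level, and 3 of 12 single omissions (vehicle 1, vehicle 3 or Igfbp2 7) raised the adjusted p above the threshold, to at most 0.0536. Between vehicle and WT, Rian differed by −0.59 (SE 0.32, adjusted p = 0.129), and Igfbp2-treated cells were lower than WT by −1.90 (SE 0.36, adjusted p = 0.000497). In centred log2 CPM over the 12 libraries, Rian was the 11th nearest of 15705 genes to Meg3, with a root mean square difference of 0.36. In the other direction, Meg3 was the 162nd nearest to Rian.

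Mirg and Dlk1 fell below the count filter and were not tested. Mirg, the miRNA host at the distal end of the cluster, had 0 to 8 counts per library, with its 8 counts in WT library 11. Dlk1, a Notch-related transmembrane protein that keeps precursors undifferentiated, had 9, 8, 7 and 10 counts in WT, 5, 5, 4 and 3 in vehicle and 4, 3, 4 and 5 in Igfbp2 libraries. Each WT count exceeded each Ncf1-/- count, but in CPM (0.201 to 0.557 in WT, 0.112 to 0.242 in vehicle, 0.180 to 0.245 with Igfbp2) WT library 11 overlapped the rest. In an edgeR fit with no count filter, Dlk1 differed between vehicle and WT by −1.02 (SE 0.44, adjusted p = 0.0869). Rtl1, the retrotransposon-derived gene between Dlk1 and Mirg, had 15, 4 and 3 counts summed over WT, vehicle and Igfbp2 libraries, and Dio3, a thyroid hormone deiodinase, had 1, 0 and 0.

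Grb10, an adaptor that binds the insulin and IGF1 receptors and damps their signalling, was called higher in all 3 comparisons. It stood at 4.5, 5.56, 5.59 and 5.79 CPM in WT, 12.6, 13, 16 and 19.1 in vehicle and 22.2, 21.7, 24.3 and 21.8 in Igfbp2 libraries. No value of any group overlapped another group. Vehicle-treated Ncf1-/- cells were 2.83-fold above WT (log2 1.5, SE 0.14, edgeR adjusted p = 1.51e-06), and Igfbp2-treated cells 1.48-fold above vehicle (0.56, SE 0.13, adjusted p = 0.00863). Each of these calls passed with any single library left out. The genotype difference was also called by the fits on library totals and on TPM with limma, whereas the treatment difference was 0.29 (adjusted p = 0.118) on library totals and −0.0015 (adjusted p = 0.996) with limma on log2(TPM + 1). In TPM, Grb10 averaged 1.31 ± 0.249 in WT, 2.83 ± 0.768 in vehicle and 2.81 ± 0.581 in Igfbp2 libraries (SD, n = 4).

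Peg10, a retrotransposon-derived gene needed for the placenta, showed the largest genotype difference of the 8 genes tested. Its values were 47.3, 51.9, 59.6 and 47.7 CPM in WT, 155, 218, 186 and 325 in vehicle and 309, 354, 511 and 265 in Igfbp2 libraries. All Ncf1-/- libraries lay above all WT libraries, and the vehicle and Igfbp2 libraries overlapped. The genotype difference was 4.28-fold (log2 2.10, SE 0.24, edgeR adjusted p = 7.98e-06) and passed with any single library left out. The treatment difference was 0.70 (SE 0.23, adjusted p = 0.0389), and 8 of 12 single omissions raised its adjusted p above the threshold, to at most 0.147.

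Peg3, a zinc finger protein whose loss reduces fetal growth and maternal care, rose in smaller steps. It measured 79.0, 86.6, 115 and 86.4 CPM in WT, 106, 131, 109 and 158 in vehicle and 151, 196, 221 and 165 in Igfbp2 libraries. WT library 11 lay above vehicle libraries 1 and 3, vehicle library 4 lay above Igfbp2 library 5, and Igfbp2 libraries lay above all WT libraries. The log2 fold changes were 0.46 (SE 0.16, edgeR adjusted p = 0.0245) for genotype, 0.54 (SE 0.16, adjusted p = 0.0269) for treatment and 1.0 (SE 0.16, adjusted p = 0.000137) for treated cells against WT. Of 12 single omissions, 5 lost the genotype call, 5 the treatment call and 0 the last. With limma on log2(TPM + 0.1) none of the 3 was called, at 0.48, 0.10 and 0.58 (adjusted p = 0.149, 0.777 and 0.0663). Without the 5 RNAs highest in TPM, that fit called only treated cells against WT (0.73, adjusted p = 0.00514).

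Plagl1, a zinc finger transcription factor that acts on other imprinted genes and halts the cell cycle, did not pass the test between genotypes. It stood at 5.73, 9.12, 6.51 and 6.96 CPM in WT, 6.23, 7.69, 7.42 and 8.84 in vehicle and 8.36, 11.3, 12.2 and 10.2 in Igfbp2 libraries. The groups overlapped in every comparison. The genotype difference was 0.10 (SE 0.17, edgeR adjusted p = 0.637). With Igfbp2 the level rose by 0.48 (SE 0.16, edgeR adjusted p = 0.0482), a call that 7 of 12 single omissions lost. With limma on log2(TPM + 0.1) this rise was 0.06 (adjusted p = 0.837), and 0.38 (adjusted p = 0.0758) without the 5 RNAs highest in TPM.

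Ndn, encoding necdin, a growth suppressor of postmitotic neurons, differed least of the genes tested. Its values were 84.7, 83.9, 80.9 and 69.5 CPM in WT, 83.6, 79.6, 84.6 and 72.5 in vehicle and 91.5, 80.4, 72.2 and 70.3 in Igfbp2 libraries. The log2 differences were 0.01 for genotype and −0.03 for treatment, with an SE of 0.10 each and edgeR adjusted p-values of 0.966 for genotype and 0.862 for treatment. In TPM the picture differed, with 28.5 ± 5.01 in Igfbp2 libraries against 40.3 ± 1.70 in vehicle libraries (SD, n = 4) and no overlap, and on library totals the treatment difference was −0.30 (edgeR adjusted p = 0.0296). The medians of all genes moved likewise, to −0.42 with limma on log2(TPM + 0.1), where Ndn was −0.52, and to −0.23 on library totals. Without the 5 RNAs highest in TPM, the treatment difference of Ndn was not called on totals (−0.22, adjusted p = 0.118) or on TPM (−0.19, adjusted p = 0.134). For Igfbp2-treated cells against WT, that TPM fit called Ndn lower (−0.31, limma adjusted p = 0.00801), where the median of all genes was −0.28. With TMM factors the Ndn difference from WT was −0.02 (edgeR adjusted p = 0.858).

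**Figure D2:**
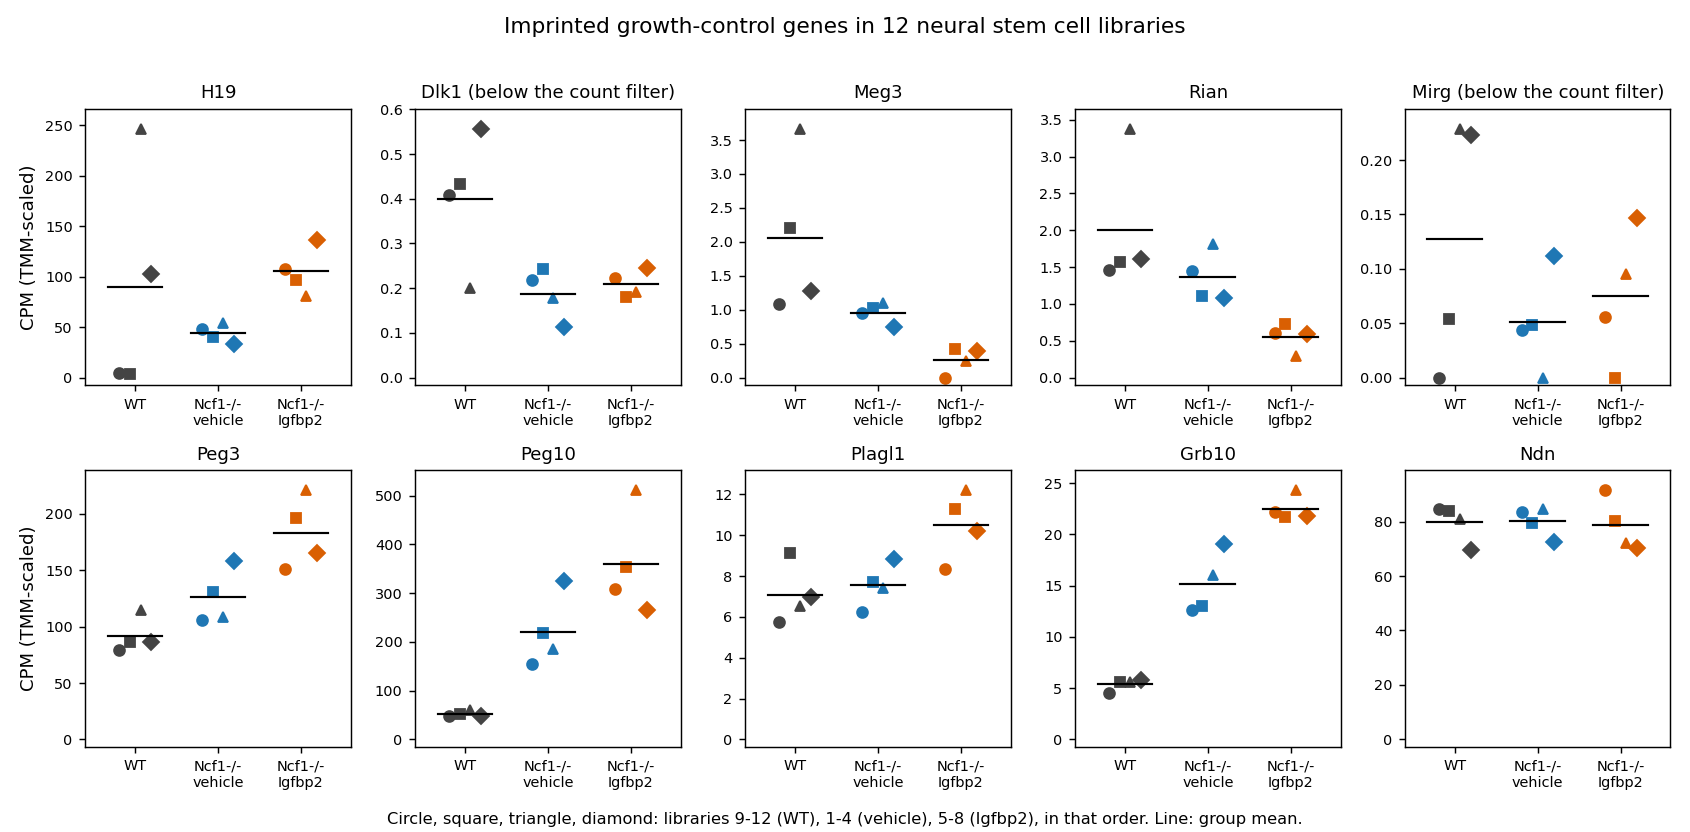
CPM (TMM-scaled) of the 10 genes, 1 panel each, with 1 point per library in 3 groups of 4 and a line at the group mean. Grb10 rises in steps from 4.5 to 5.79 in WT to 21.7 to 24.3 with Igfbp2, Meg3 and Rian fall with Igfbp2, and Ndn stays between 69.5 and 91.5.

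Counted together, 4 of the 8 tested genes were called between vehicle-treated Ncf1-/- and WT cells, 3 higher (Peg3, Peg10, Grb10) and 1 lower (Meg3), beside 57.2% of all genes tested (28.9% higher and 28.2% lower). The groups did not overlap for 2 of the 8, beside 51.2% of all genes. With Igfbp2, 6 of the 8 were called, 4 higher (Peg3, Peg10, Plagl1, Grb10) and 2 lower (Meg3, Rian), beside 25.0% of all genes (14.2% higher and 10.7% lower), and 4 did not overlap, beside 34.1%. This count fell to 1 without vehicle library 1, vehicle library 3 or Igfbp2 library 7. It fell to 2 without vehicle library 2 and to 3 without Igfbp2 library 6. All genes called with Igfbp2 then numbered 2285 to 2827, against 3923 with every library. The genotype count fell to 2 without vehicle library 2, vehicle library 4 or WT library 10 (8211 to 8638 of all genes, against 8978). Between Igfbp2-treated cells and WT, 6 were called, 4 higher and 2 lower, beside 62.4% (31.6% higher and 30.8% lower), and 5 did not overlap, beside 54.3%. The medians of the 8 log2 fold changes were 0.05, 0.51 and 0.41, and those of all genes 0.02, 0.04 and −0.01. The treatment and genotype comparisons share the vehicle libraries.

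**Figure D3:**
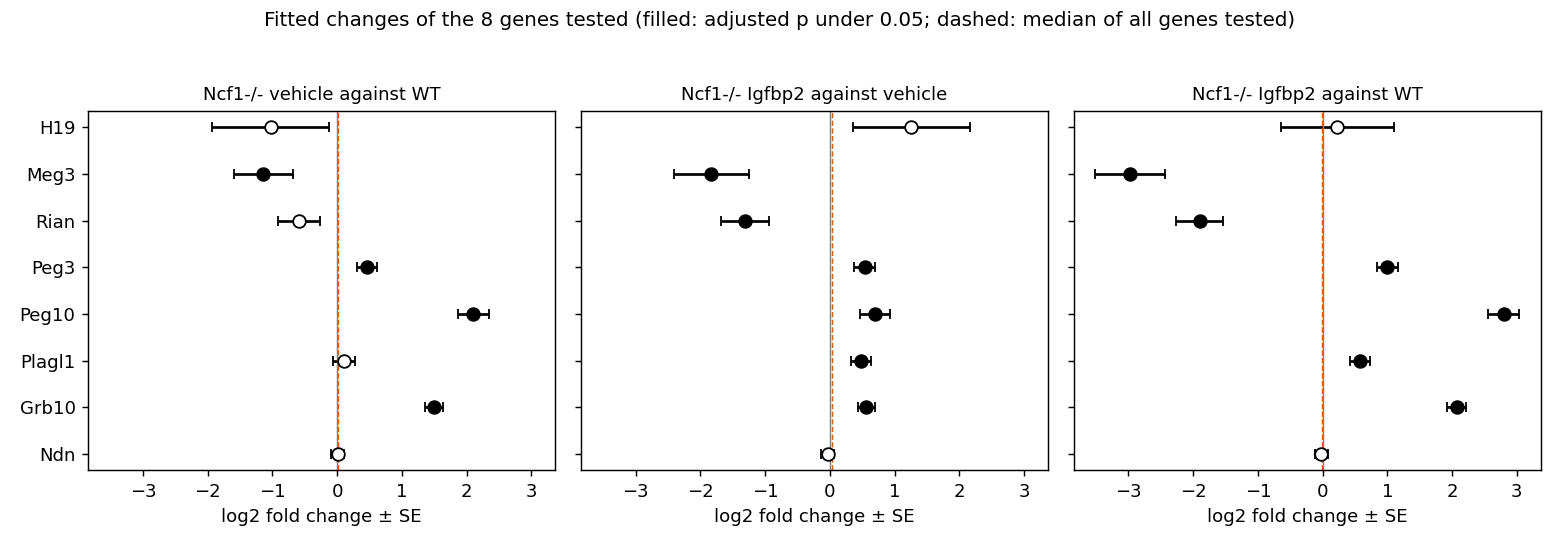
Log2 fold changes with SE of the 8 genes tested in the 3 comparisons, with filled points for an adjusted p under 0.05 and a dashed line at the median of all genes tested. Peg10 and Grb10 lie furthest to the right between genotypes (2.10 and 1.5), Meg3 and Rian lie to the left with Igfbp2 (−1.83 and −1.31), and the SE of H19 is 0.90 in both comparisons.

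The number and direction of the treatment calls depended on how libraries were scaled. Rn7s1, Rn7s2, Rn7sk, Rpph1 and Rmrp, small RNAs of the signal recognition, transcription and RNase complexes, took 62.1 to 72.3% of TPM in Igfbp2 libraries, 56.0 to 60.3% in vehicle and 59.8 to 66.8% in WT. On library totals without TMM factors, the median of all genes shifted to −0.23 with Igfbp2, and the 3 members called were all lower: Meg3 (−2.10, edgeR adjusted p = 0.0138), Rian (−1.58, adjusted p = 0.00594) and Ndn. Peg10 (0.44, adjusted p = 0.178), Peg3 (0.27, adjusted p = 0.256) and Plagl1 (0.21, adjusted p = 0.367) were then not called by edgeR. Of all genes, 648 were then called higher and 5258 lower, against 2238 and 1685 with TMM factors. Leaving the 5 RNAs out of the totals gave Grb10 0.38 (adjusted p = 0.042), Meg3 −2.02 (adjusted p = 0.0198) and Rian −1.5 (adjusted p = 0.00987). On TPM neither was called: limma gave Meg3 −0.24 to −1.24 (adjusted p = 0.0527 to 0.236) and Rian −0.32 to −0.82 (adjusted p = 0.0769 to 0.246) over its 3 fits. Between genotypes, Meg3 stayed lower and Peg10 and Grb10 stayed higher under each of these scalings, though Meg3 was not called on library totals with or without the 5 RNAs (−0.98, adjusted p = 0.0791 and 0.0759), nor with limma on log2(TPM + 0.1) with or without them (adjusted p = 0.0597 and 0.0742).

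**Figure D4:**
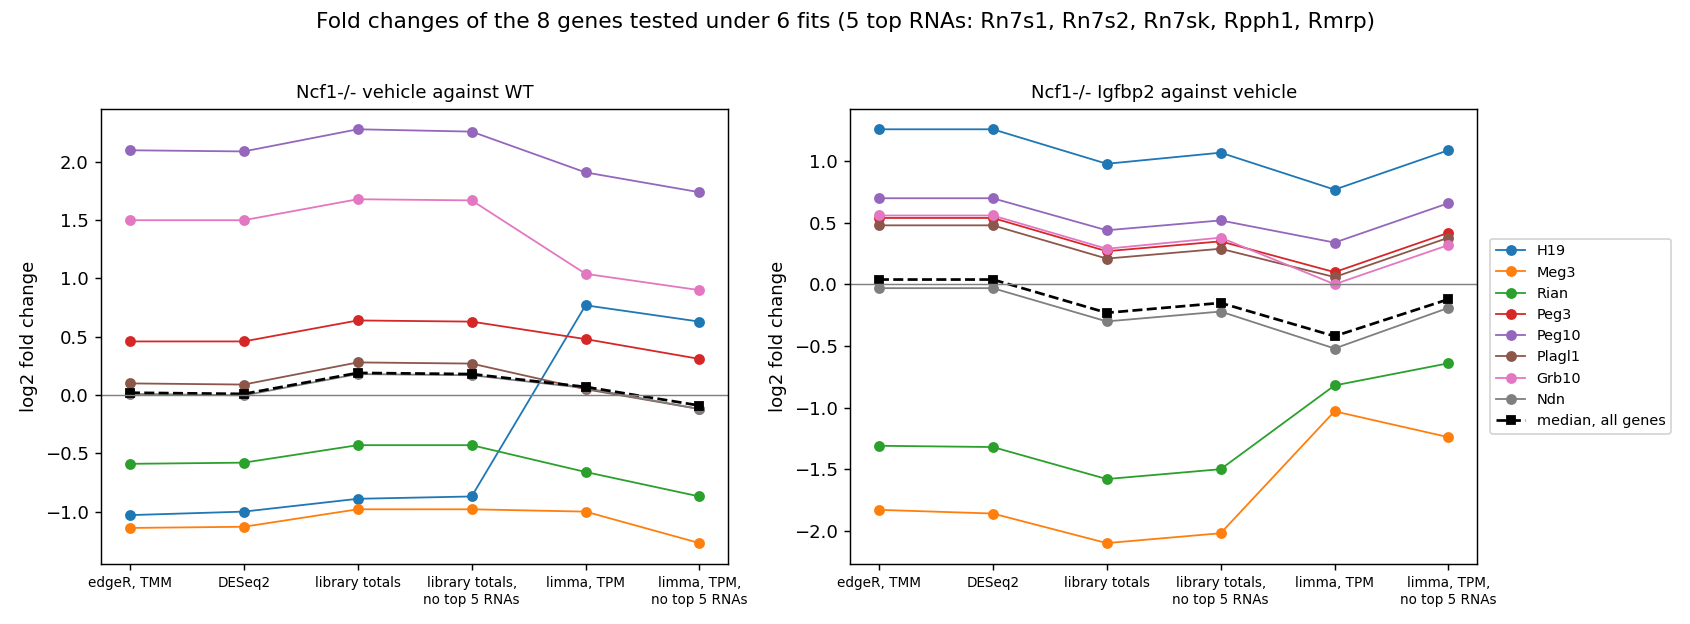
Log2 fold changes of the 8 genes tested (lines) and the median of all genes (dashed) under 6 fits that differ in scaling or unit, for genotype (left) and treatment (right). In the treatment panel the gene median moves from 0.04 with TMM to −0.23 on library totals and −0.42 for limma on log2(TPM + 0.1), and Grb10 moves from 0.56 to 0.29 and 0.00.

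Levels can be compared between genes per transcript length, in TPM. In WT the order was Ndn (38.8 ± 4.18, SD, n = 4), H19 (33.7 ± 44.3), Peg3 (9.31 ± 2.65), Peg10 (8.28 ± 1.76), Plagl1 (2.68 ± 0.432), Rian (1.34 ± 0.674), Grb10 (1.31 ± 0.249), Meg3 (0.820 ± 0.628), Dlk1 (0.228 ± 0.0532) and Mirg (0.0525). Peg10 stood clear of Plagl1, Meg3 of Dlk1 and Dlk1 of Mirg, and all other neighbours in this order overlapped. In vehicle libraries Peg10 (32.2 ± 11.5) came second after Ndn (40.3 ± 1.70), with overlapping values, and Grb10 (2.83) stood beside Plagl1 (2.78). With Igfbp2, Peg10 (42.0 ± 18.8), Ndn (28.5 ± 5.01) and H19 (26.2 ± 2.53) were the 3 highest, each overlapping the next.

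By likeness over the 12 libraries (root mean square difference of centred log2 CPM, the nearest of 15705 other genes), Grb10 was nearest to Fam118a (0.15), Peg10 to Esrrb (0.16), Peg3 to Fnbp1 (0.12), Plagl1 to 2700049A03Rik (0.14) and Ndn to Cdc26 (0.06). Meg3 was nearest to Socs2 (0.28), Rian to Lypd1 (0.22) and H19 to Grm5 (0.90), a far looser match than the others. Igf2 was 7th for H19 (0.99). Grb10 was 83rd for Peg10 (0.41), and Peg10 was 653rd for Grb10.

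Other imprinted genes, 63 listed from general knowledge, gave 60 symbols found in the table and 46 genes tested. Between genotypes 15 were higher and 17 lower (69.6% called, beside 57.2% of all genes), with a median of −0.16, so this group moved both ways. Cdkn1c, a maternally expressed cyclin-dependent kinase inhibitor, fell from 75.6, 59.9, 35.8 and 110 CPM in WT to 8.58, 8.95, 13.2 and 7.09 in vehicle libraries (−2.89 on the log2 scale, SE 0.30, edgeR adjusted p = 4.03e-06). Mest, a paternally expressed hydrolase-like gene of fetal tissue, rose from 25.8, 35.8, 84.0 and 40.8 to 357, 444, 441 and 572 CPM (3.28, SE 0.32, adjusted p = 2.37e-06). No vehicle library overlapped a WT library for either gene.

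Peg12, a paternally expressed gene near Ndn, was 9.78, 9.71, 15.4 and 8.24 CPM in WT and 37.6, 47.2, 43.2 and 54.5 in vehicle libraries (2.07, SE 0.21, edgeR adjusted p = 3.95e-06). Ddc, the aromatic amino acid decarboxylase gene next to Grb10, went the other way from it, from a mean of 31.5 ± 25.3 CPM in WT to 0.283 ± 0.0701 in vehicle libraries (SD, n = 4, log2 −6.78, SE 0.81, adjusted p = 1.32e-05). Cobl, on the other side of Grb10 and named after its value was seen, fell by 3.59 (adjusted p = 3e-06). Trappc9 (−0.99) and Snrpn (−0.73), a vesicle trafficking protein and a splicing protein, were lower. Nnat, a paternally expressed proteolipid of the developing brain, was lower by −0.49 (SE 0.19, adjusted p = 0.047), with overlapping groups. Only 7 of 24 alternative fits and thresholds kept the Nnat call.

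With Igfbp2, 4 of the 46 were higher and 5 lower (19.6%, beside 25.0% of all genes), with a median of 0.05. Igf2r, the receptor that clears Igf2 from the cell surface, stood at 62.5, 73.9, 66.9 and 108 CPM in vehicle and 110, 144, 156 and 135 in Igfbp2 libraries, and was called higher without overlap (0.81, SE 0.18, edgeR adjusted p = 0.00846). Trappc9 (0.44) and Sgce (0.45), a sarcoglycan gene beside Peg10, also rose. The noncoding RNAs Kcnq1ot1 (−0.61) and Snhg14 (−0.48) and the coding gene Tssc4 (−0.37) fell. Of 25 alternative fits and thresholds, 20 kept the call for Igf2r, 16 for Kcnq1ot1, 17 for Snhg14 and 21 for Tssc4. With limma on TPM, Sgce (−0.03) and Trappc9 (−0.01) were near 0, where the median of all genes was −0.30 to −0.42, and without the 5 RNAs highest in TPM they were 0.29 and 0.31, not called. Igfbp2-treated cells still differed from WT at Ddc (−6.66), Mest (3.62, adjusted p = 1.19e-06), Cdkn1c (−2.35), Peg12 (1.89), Kcnq1ot1 (−1.18), Igf2r (0.97, adjusted p = 0.000534) and Nnat (−0.75, adjusted p = 0.00462), among 16 higher and 18 lower (73.9%, beside 62.4%).

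**Figure D5:**
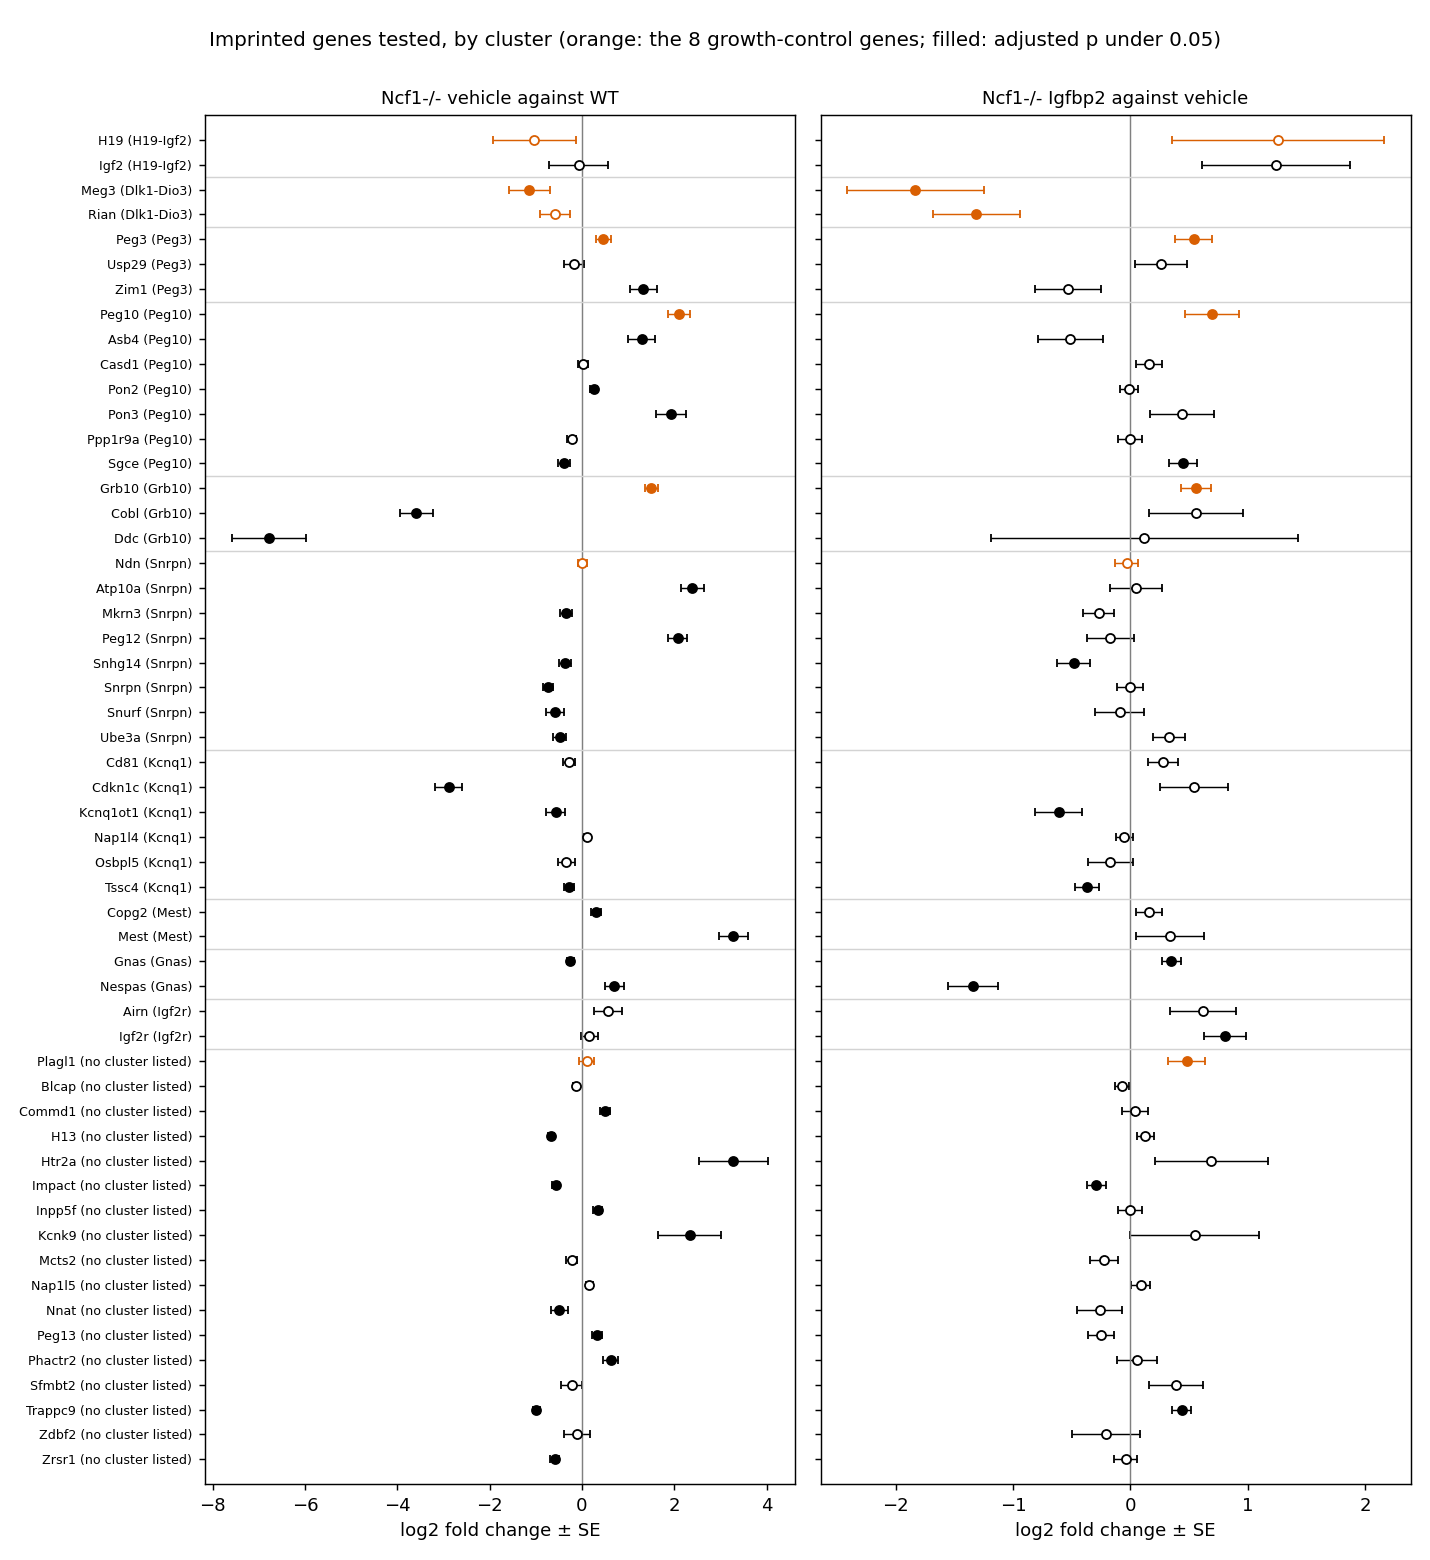
Log2 fold changes with SE of the 8 genes (orange) and 46 other imprinted genes (black), ordered by imprinted cluster, for genotype and for treatment, with filled points for an adjusted p under 0.05. Within the Grb10 cluster Grb10 is higher (1.5) while Ddc (−6.78) and Cobl (−3.59) are lower, and between treatments most genes lie near 0.

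Genes that protect imprints after fertilization formed a list of 10, all tested. Between genotypes 4 were higher and 1 lower (5 of 10 called, beside 57.2% of all genes): Uhrf1, which brings the methyltransferase Dnmt1 to replicated DNA, rose by 2.15 (edgeR adjusted p = 3.01e-06) and Hells, a chromatin remodeller, by 1.88 (adjusted p = 3.56e-05), Zfp57 by 0.77 (adjusted p = 0.000982) and Dnmt1 by 0.45 (adjusted p = 0.0412), while Arid4b fell by 0.79. Zfp57 was 3.59, 3.72, 4.90 and 2.95 CPM in WT, 7.06, 7.26, 6.23 and 5.56 in vehicle and 2.82, 2.76, 2.87 and 2.65 in Igfbp2 libraries. Its Igfbp2 values lay below those of both other groups and within a narrow range. With Igfbp2, 1 of the list was higher (Arid4a, 0.50, edgeR adjusted p = 0.00898) and 1 lower (Zfp57, −1.23, SE 0.16, adjusted p = 0.000802) (2 of 10 called, beside 25.0% of all genes).

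WT library 12 was the only WT library with low Y-linked expression, and another sample sheet of the study lists it as treated with apocynin, an oxidase inhibitor, where the labels followed here give no treatment. Each genotype result was refitted without it, which left WT and vehicle libraries alike in Y-linked expression but not in Xist (3.87 to 5.22 CPM in WT libraries 9 to 11, 72.3 to 87.8 in vehicle libraries). Grb10 was then 1.51 (edgeR adjusted p = 6.24e-06), Peg10 2.03 (adjusted p = 5.35e-05), Meg3 −1.33 (adjusted p = 0.0264) and Peg3 0.40 (adjusted p = 0.0691). No such refit exists for the treatment, since all 4 vehicle libraries were high and all 4 Igfbp2 libraries low in Y-linked expression.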

How the data were processed

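Gene tables of 12 NSC cultures were used (4 WT, 4 Ncf1-/- with vehicle, 4 Ncf1-/- with Igfbp2), and libraries of apocynin-treated cells were not analysed here. The authors quantified genes with RSEM after Bowtie2, on GRCm38 per the submitters' notes, with versions and annotation release not given in the sources used here. They deposited expected counts, TPM and FPKM per library. FPKM was not used, and the score in the merged table deposited by the authors served only to match symbols to gene IDs. Of the genes in the files, 45143 of 45792 were in GENCODE M21, used for locations.

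Expected counts (15.9% of them not whole) were rounded and fitted in R 4.3.3 with edgeR 4.0.16 (limma 3.58.1 served for log2 values). After filterByExpr, TMM factors were computed, and 1 quasi-likelihood model without covariates was fitted to all 12 libraries, since a count test replaced the study's own test on TPM. P-values were adjusted by Benjamini-Hochberg over all genes tested. The fit was tested on simulated data with the same spread in all groups, which does not test it under the wider spread of the WT libraries. Alternatives were DESeq2 1.42.0, library totals, other count filters, the 2 groups alone, limma on log2 TPM with pseudocounts of 1 or 0.1, the study's own test on TPM, stricter thresholds, each library left out, and the preparation number as a block. Totals and TPM without the 5 RNAs highest in TPM were added after the data were seen. The median SE of a log2 fold change was 0.141 between genotypes. The methods name 4 pups per genotype as the source of the cultures, while the labels name no animals. Each vehicle library held both Xist (72.3 to 87.8 CPM) and Y-linked RNA (105 to 116 CPM). Whether each came from a single animal is not settled. P-values therefore measure the spread between these libraries, which may be smaller than that between animals. The closest replicate pair (vehicle 2 and 3) differed by 4.64 in chi-square over its degrees of freedom, above the sampling noise of 1.

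The numbers of vehicle and Igfbp2 preparations did not pair the libraries, since their deviations from the group means correlated at −0.11 to 0.1 in 4 same-numbered pairs and −0.355 to 0.383 in 12 others. The genes and lists were chosen with earlier results of these data known. Text names all 10 genes, 7 fixed other imprinted genes, and in each comparison the 6 called ones with the largest change among those with a mean of at least 5 CPM, the 3 largest changes among imprint-protecting genes, and the nearest gene by likeness.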

Additional observations from a re-analysis of the deposited data

Results flagged for a closer look

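Of 31 groups of 4 libraries examined for the 10 genes and Igf2, 1 had a library far from the others, where chance gives about 1 in 20. Rian reached 3.38 CPM in WT library 11, against 1.46 to 1.61 in the other WT libraries. The same library was the highest of the WT group in H19 (247 CPM), Igf2 (4.42 CPM), Meg3 (3.67 CPM), Peg3 and Peg10, and had the lowest oligodendrocyte marker sum (4019 CPM) and the highest stem cell marker sum (8203 CPM) of the WT group, with the largest total of 34086554 counts. The part of these values in the Rian level was not tested.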

How the results depend on the processing

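The counts of members called (4 between genotypes, 6 with Igfbp2, 6 between treated cells and WT) depended on the setting. Between genotypes they were 2 with limma on log2(TPM + 0.1), 2 without the 5 top RNAs in that fit, 2 at an adjusted p under 0.01 and 0 with the study's own TPM test, which had 1 unadjusted p under 0.05 of 10. With single libraries left out they ranged from 2 (without vehicle 2, vehicle 4 or WT 10) to 4 (8126 to 9291 of all genes, against 8978). With Igfbp2 they were 3 on library totals (0 higher, 3 lower), 3 on totals without the 5 top RNAs (1 higher, 2 lower), 2 with a mean of at least 5 CPM, 1 with limma at either pseudocount, 0 without the 5 top RNAs in limma (5 unadjusted), 0 by the study's own test (1 unadjusted), 1 at an adjusted p under 0.01 and 2 at an absolute log2 fold change of at least 1. Single omissions gave 1 (without vehicle 1, vehicle 3 or Igfbp2 7) to 6 (2285 to 4835 of all genes, against 3923). Treated cells against WT gave 0 by the study's own test (5 unadjusted) and 5 to 6 with single omissions. DESeq2 made the same calls for all 8 genes.

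Other imprinted genes called between genotypes (32) numbered 20 and 19 with limma, where 6659 and 6541 of all genes were called. These imprinted genes numbered 12 by the study's own test (4042 of all genes), 18 at an adjusted p under 0.01, 11 at a log2 fold change of at least 1 and 26 to 35 with single omissions. With Igfbp2 (9) they were 16 on library totals and 20 and 20 with limma, all lower. Of all genes, 648 were called higher and 5258 lower on library totals. Limma called 200 and 165 of all genes higher and 6154 and 6354 lower. The other imprinted genes numbered 2 by the study's own test (2040 of all genes), 3 at an adjusted p under 0.01, 1 at a log2 fold change of at least 1, and 5 (without vehicle 2) to 11 with single omissions. Treated cells against WT (34) gave 20 by the study's own test, 11 at a log2 fold change of at least 1, and 30 to 34 with single omissions. Among values called in at least one of the fits compared, directions turned for Grb10 with Igfbp2 (−0.0015 with limma, −0.01 by the study's own test), Igf2 between genotypes (single omissions −0.41 to 1.60, the latter without WT library 11), Sgce with Igfbp2 (−0.03, −0.03 and −0.04) and against WT (−0.35 and −0.38), and Trappc9 with Igfbp2 (−0.01 and −0.01), all but Igf2 on TPM. Of the single-gene values, 1546 kept direction and side of the threshold, 57 changed sign with no call in either fit, 237 lost a call and 34 gained one. The sign changes without a call were in H19 (up to 0.77 between genotypes, down to −0.36 against WT), Igf2, Ndn, Plagl1, Sgce, Mest, Ddc, Igf2r, Snrpn, Arid4a, Hells and Uhrf1. The causes were not tested.

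The preparation number as a replicate block, over the 8 Ncf1-/- libraries, left 6 members called with Igfbp2 (4 higher, 2 lower), with Peg10 lost (0.67, adjusted p = 0.0541) and H19 gained. Levels of Meg3, Rian, Dlk1 and Mirg rest on few counts, which limits what can be seen of them.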

Other observations

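Calls within imprinted clusters went both ways in some clusters and one way in others, beside 57.2% of all genes called between genotypes (28.9% higher and 28.2% lower). Of 8 tested genes listed with the Snrpn cluster, which holds Ndn, 2 were higher and 5 lower between vehicle-treated Ncf1-/- and WT cells (edgeR, adjusted p under 0.05), with Peg12 higher and Snrpn lower. Of 7 tested genes of the Peg10 cluster, 4 were higher and 1 lower, and of 3 of the Grb10 cluster, 1 was higher and 2 lower. The calls went one way in the Peg3 cluster (2 higher of 3 tested), the Mest cluster (2 higher of 2) and the Kcnq1 cluster (3 lower of 6), and the Gnas cluster had 1 higher and 1 lower. In the Igf2r cluster, Igf2r (0.16, edgeR adjusted p = 0.481) and the noncoding Airn (0.57, adjusted p = 0.117, named after its value was seen) were not called, nor were H19 and Igf2 in theirs. In the Dlk1-Dio3 cluster only 2 of 7 listed genes, Meg3 and Rian, had enough counts to be tested.

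Xist, the RNA that silences an X chromosome in female cells, was high in vehicle libraries, where Y-linked genes were also high, and was 166 to 275 CPM in Igfbp2 libraries and 291 in WT library 12.

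Astrocyte markers (8 genes) summed to 7359 to 13139 CPM in WT, 3246 to 3800 in vehicle and 3540 to 4729 in Igfbp2 libraries, and neuronal markers (12 genes) to 705 to 1111, 510 to 576 and 462 to 493. Choroid plexus and ependymal markers (7 genes) summed to 14.1 to 56.6, 30.7 to 37.6 and 56.1 to 79.2 CPM. Microglial markers (8 genes) summed to 0.835 to 2.13 CPM over all libraries, with Cx3cr1, Tmem119, Aif1, Ptprc and C1qa at 3 counts or fewer in each.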
